A study of Mus musculus with 2 samples.

Results

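The nuclear lamina genes described here are *Lmna*, *Lmnb1* and *Lmnb2*, which encode the lamins, *Lbr*, *Emd* and *Tmpo*, which encode proteins of the inner nuclear membrane, and *Sun1* and *Sun2*, which encode the inner part of the bridge between nucleus and cytoskeleton. They were chosen by gene symbol, with earlier results of these data known. All 8 had a value in both libraries, out of 14732 gene symbols with a value in at least 1 library. The cells were CD8+ T cells of OT-I transgenic C57BL/6 mice aged 6 to 8 weeks, taken from the lymph nodes and the spleen, and carry a T cell receptor for SIINFEKL, a peptide of ovalbumin (OVA). Both cultures were activated for 24 h with 2.5 ng/mL of peptide and 10 U/mL of IL-2, and were then spun for 90 min with retrovirus. The control received the empty RVKM vector with its human CD2 cassette, and Eomes-overexpressing cells received the same vector with Eomes. Cells with human CD2 on the surface were sorted 48 h later, plated at 40000 per well and given peptide and IL-2 again for 3 days. Each condition was 1 library, called the control library and the Eomes library here, so the differences below have no replicates behind them and come without p-values. How many mice stand behind each library is not given in the sources used here.

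The nuclear lamina is a meshwork of type V intermediate filaments under the inner nuclear membrane. B-type lamins keep a lipid anchor and stay close to the membrane, whereas lamins A and C, both made from *Lmna*, also occur inside the nucleus. A-type lamins are known for stiffening the nucleus, and resting lymphocytes are known to hold little of them. Lamin B receptor and LEM-domain proteins such as emerin tether chromatin to the envelope. SUN proteins cross the inner membrane and bind nesprins in the space between both membranes, which together form the LINC complex.

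The deposited values are reads scaled to transcript length and library depth. Their header calls them FPKM and the study's methods RPKM, which is the name used here. Since they are given per length, levels can be set side by side between genes. Most low values lay near steps of whole reads, which placed the depth at about 19340000 reads for the control library and 19360000 for the Eomes library. *Eomes* itself was at RPKM values of 2.47 in the control library and 129.6 in Eomes-overexpressing cells, where reads from the vector and from the cell's own gene were not told apart. Genes that reached an RPKM of 1 in either library, or in both, are called expressed. Of these 9925 genes, 759 (7.65%) differed by more than 1.5-fold, 244 (2.46%) higher and 515 (5.19%) lower in the Eomes library. The T cell genes *Thy1*, *Cd3g* and *Cd3d* were at 1195.3, 264.4 and 189.4 in the control library and at 1108.7, 196.5 and 159.0 in the Eomes library. *Cd8a*, which encodes a chain of the CD8 coreceptor, was at 181.8 and 99.1. All 7 T cell markers were expressed, with a summed RPKM of 2257.3 and 1909.6. Each of the 7 was lower in the Eomes library, and *Cd8a* alone by more than 1.5-fold.

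Among the 8 nuclear lamina genes, only *Lmna* differed by more than 1.5-fold between the 2 libraries. It stood at 5.77 RPKM in the control library and 19.7 in the Eomes library, 3.41 times the control value. In bulk samples, more cells that make a transcript and more of it per cell cannot be told apart. It was also past 2-fold, as were 0.695% of expressed genes in the higher direction and 1.76% in the lower one. The other 7 genes stayed within 1.5-fold, with log2 ratios (the Eomes library over the control library) from -0.32 for *Sun1* to 0.23 for *Lmnb1*. One gene of 8 past 1.5-fold is to be read beside 7.65% of all expressed genes, and the number of members past this fold is therefore not a result about the group. The median log2 ratio of the 8 genes was 0.10, beside -0.0037 over all expressed genes, and without *Lmna* it was 0.01.

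**Figure D1:**
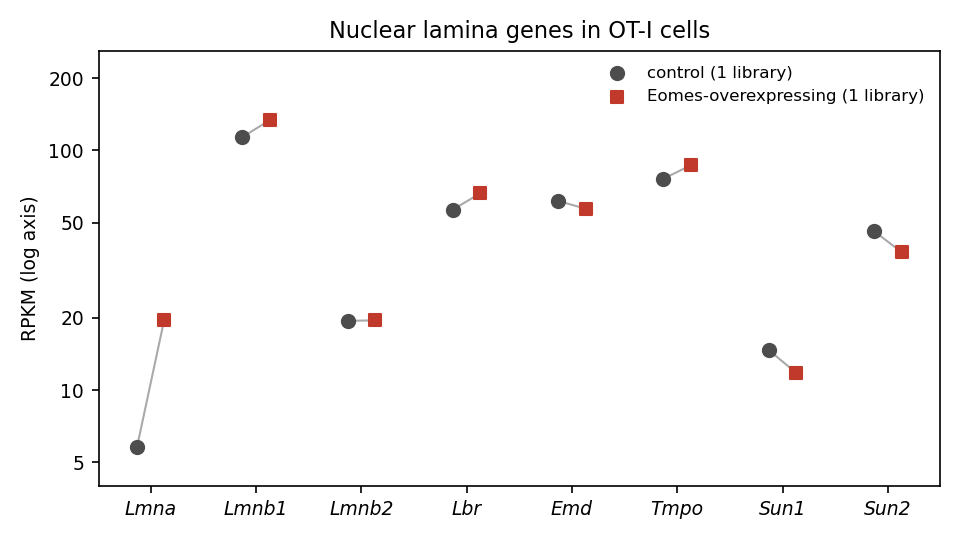
RPKM (log axis) of the 8 nuclear lamina genes in the control (circles) and the Eomes library (squares), 1 library each, so that no error bar can be drawn; a line joins both values of a gene. *Lmna* goes from the lowest level of the group, 5.77, to 19.7, next to *Lmnb2* at 19.6, while the other genes move little.

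*Lmna* lies on the minus strand of chromosome 3 of mm10 (chr3:88480147-88509956, GENCODE). It encodes lamins A and C by alternative splicing, and the 1 value per symbol does not tell both apart. In the order of log2 ratios of the 9925 expressed genes it was at position 24, with a log2 ratio of 1.77. About 352 reads in the control library and 1204 reads in the Eomes library stand behind it, approximated from RPKM, depth and a transcript of 3156 bases. The exact binomial (Clopper-Pearson) 95% interval from these reads is 1.60 to 1.95. Such intervals hold counting error alone, so they set 1 library against another and say nothing of how cultures vary. The 3555 expressed genes with a mean RPKM from 5 to 20 had a central 95% of log2 ratios from -0.69 to 0.50, and 6 of them had a higher log2 ratio than *Lmna*. The rank of *Lmna* by level among expressed genes went from 7014 in the control library to 3834.

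*Lmnb1* was the most abundant lamin transcript in both libraries, and *Lmnb2* was above *Lmna* in the control library but not in the Eomes library. *Lmnb1*, which encodes lamin B1 (chr18:56707813-56753424), had the highest RPKM of the 8 genes, 113.4 in the control library and 133.4 in the Eomes library. Its log2 ratio of 0.23 had a counting interval of 0.19 to 0.28, from about 6237 and 7345 reads. Of the 910 expressed genes with a mean RPKM from 100 upward, 45 had a higher log2 ratio than *Lmnb1* and 94.9% a lower one. *Lmnb2*, which encodes lamin B2 (chr10:80901203-80918245), was at 19.5 and 19.6, a log2 ratio of 0.01 with an interval from -0.11 to 0.12. The difference for *Lmnb1* was thus larger than its counting error and that for *Lmnb2* was not, while neither can be set against the spread between cultures.

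Within a library, shares and ratios do not depend on the scaling between libraries. *Lmna* made up 4.16% of the summed RPKM of the 3 lamin genes in the control library and 11.4% in the Eomes library. The share of *Lmnb1* was 81.8% and 77.3%, and that of *Lmnb2* was 14.0% and 11.3%. The level of *Lmnb1* was 19.7 times that of *Lmna* in the control library and 6.77 times in the Eomes library. *Lmnb2* was 3.37 times as high as *Lmna* in the control library, whereas in the Eomes library both were nearly level, at a ratio of 0.992. Between the B-type lamins the ratio of *Lmnb1* to *Lmnb2* was 5.83 and 6.83. The summed RPKM of the lamin genes was 138.7 in the control library and 172.7 in the Eomes library.

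**Figure D2:**
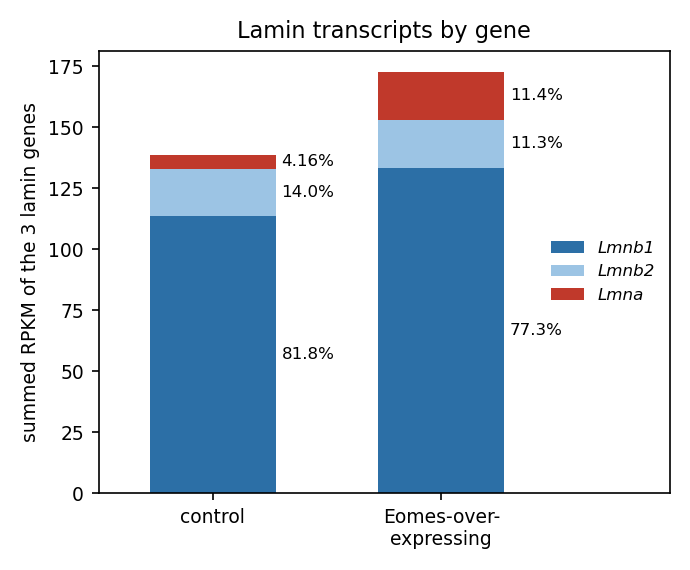
Summed RPKM of the 3 lamin genes (vertical axis, starting at 0) in the control and the Eomes library, divided by gene, with the share of each gene beside its segment. The *Lmna* segment goes from 4.16% to 11.4% of a sum that goes from 138.7 to 172.7.

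Regions around listed starts of transcription are shown because *Lmna* stood apart from the other members in its level and its log2 ratio. They were taken from RefSeq (GRCm38.p6, which is mm10) as 300-base windows, from 250 bases before to 50 bases after a start site. Such windows were taken for 7 of the 8 genes, 11 windows in all. *Lmnb1* was left out beforehand, and its start regions were not searched. The first windows of *Lmna*, *Lbr* and *Tmpo* lie inside the span of the annotated gene, downstream of its outermost start, which no window of these genes covers. Their start sites match no GENCODE transcript start. Which start sites these cells used was not measured, so the windows may not be the start regions in use. The first window of *Lmna* in the direction of transcription is printed with those of *Lbr*, which had a log2 ratio above 0, and *Sun2*, which had one below 0. They run 5′ to 3′ on the strand of the gene, and capitals mark each CG dinucleotide.
Lmna, chr3:88503303-88503602, minus strand: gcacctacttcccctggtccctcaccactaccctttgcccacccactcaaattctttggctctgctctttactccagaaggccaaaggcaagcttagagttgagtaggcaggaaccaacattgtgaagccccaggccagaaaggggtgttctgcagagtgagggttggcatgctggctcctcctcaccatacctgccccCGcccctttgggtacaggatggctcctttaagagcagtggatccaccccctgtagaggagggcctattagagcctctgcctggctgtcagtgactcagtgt
Lbr, chr1:181842352-181842651, minus strand: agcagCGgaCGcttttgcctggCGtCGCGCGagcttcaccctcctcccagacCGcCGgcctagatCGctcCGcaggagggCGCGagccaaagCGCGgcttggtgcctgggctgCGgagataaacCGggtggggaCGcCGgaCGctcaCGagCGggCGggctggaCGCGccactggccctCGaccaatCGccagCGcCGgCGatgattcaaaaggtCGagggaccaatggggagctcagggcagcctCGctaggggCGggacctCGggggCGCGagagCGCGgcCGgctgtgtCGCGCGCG
Sun2, chr15:79742487-79742786, minus strand: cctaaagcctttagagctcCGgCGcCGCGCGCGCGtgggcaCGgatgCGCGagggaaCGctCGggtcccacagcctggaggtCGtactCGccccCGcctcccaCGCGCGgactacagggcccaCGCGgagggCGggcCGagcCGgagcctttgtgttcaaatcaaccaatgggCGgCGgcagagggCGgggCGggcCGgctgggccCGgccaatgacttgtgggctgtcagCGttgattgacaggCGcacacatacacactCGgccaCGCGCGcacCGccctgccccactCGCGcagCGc

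The *Lmna* window held 1 CG dinucleotide, and 5.43% of the 32851 windows of all genes held fewer. The windows of *Lbr* and *Sun2* held 42 and 39, and 97.0% and 95.6% of all windows held fewer. The first windows of *Lmnb2*, *Emd*, *Tmpo* and *Sun1* held 24, 15, 36 and 36. Among the first windows of the 7 genes *Lmna* was thus lowest, and *Lbr* and *Sun2*, printed beside it, were highest. A second *Lmna* window, at a start site further downstream that is also a GENCODE transcript start (chr3:88493263-88493562), held 7, the median of all windows. The heptamer GGTGTGA, the core sequence that T-box factors such as Eomes bind, was searched on both strands and was in 0 of the 11 windows, beside 3.98% of all windows. Its shorter form GTGTGA, which lies within it, was also in 0 of the 11, beside 14.5% of all windows. With 11 windows and shares this low, 0 does not set these genes apart from others. The CCAAT box, searched as CCAAT on both strands, was in 37.4% of all windows. It was in the first window of *Lbr*, *Emd*, *Tmpo*, *Sun1* and *Sun2*, and in that of neither *Lmna* nor *Lmnb2*, while the second window of *Lmna* held it at position -131 from the start site. The GC box GGGCGG, searched on both strands, was in the first window of all 7 genes, *Lmna* included, beside 35.7% of all windows. An E2F site, searched on both strands as TTTCCCGC, TTTCGCGC, TTTGCCGC or TTTGGCGC, was in 0 of the 7 first windows and in 1 of the 11, the second of *Tmpo*, beside 2.26% of all windows. The TATA box, searched on both strands as TATAAA, was likewise in 0 of the 7 first windows and in 1 of the 11, the second of *Sun1*, beside 13.6%. These matches are descriptions of letters in a short window, and binding of Eomes was not analysed here. The paper reports that most Eomes binding sites fell in introns or between genes, mostly farther from start sites than these windows reach.

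Of the proteins of the inner membrane, *Tmpo* and *Lbr* had log2 ratios above 0 and *Emd* had one below 0, all within 1.5-fold. *Lbr* encodes lamin B receptor, which holds heterochromatin at the envelope and also acts in sterol synthesis (chr1:181815335-181843046). Its RPKM was 56.6 in the control library and 66.1 in the Eomes library, a log2 ratio of 0.22 (counting interval 0.16 to 0.29). *Tmpo* encodes the lamina-associated polypeptides 2, of which some cross the inner membrane and LAP2α is soluble and binds A-type lamins (chr10:91147571-91181315). It was at 76.2 and 86.6, a log2 ratio of 0.18 (0.13 to 0.24), and its isoforms share 1 value. *Emd*, which encodes emerin, a LEM-domain protein (chrX:74254687-74261548), was at 61.5 and 57.1. Its log2 ratio was -0.11 (-0.20 to -0.01), and its position by log2 ratio was 6784 of 9925. *Lbr* was below *Emd* in the control library and above it in the Eomes library, which was the only other change of order besides that of *Lmna* with *Sun1* and *Lmnb2*.

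Both SUN genes were lower in the Eomes library, within 1.5-fold. *Sun2* (chr15:79724070-79742536) was at RPKM values of 46.0 in the control library and 37.6 in the Eomes library. Its log2 ratio was -0.29, with a counting interval of -0.36 to -0.22 from about 3386 and 2770 reads. *Sun1* (chr5:139200637-139249840) was at 14.7 and 11.8, a log2 ratio of -0.32 (-0.44 to -0.19). *Sun2* was thus the more abundant SUN transcript in both libraries, and its ratio to *Sun1* was 3.13 in the control library and 3.19 in the Eomes library. Among the 2889 expressed genes with a mean RPKM from 20 to 100, 7.48% had a lower log2 ratio than *Sun2*, and 9.76% of the 3555 genes with a mean RPKM from 5 to 20 had a lower one than *Sun1*.

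**Figure D3:**
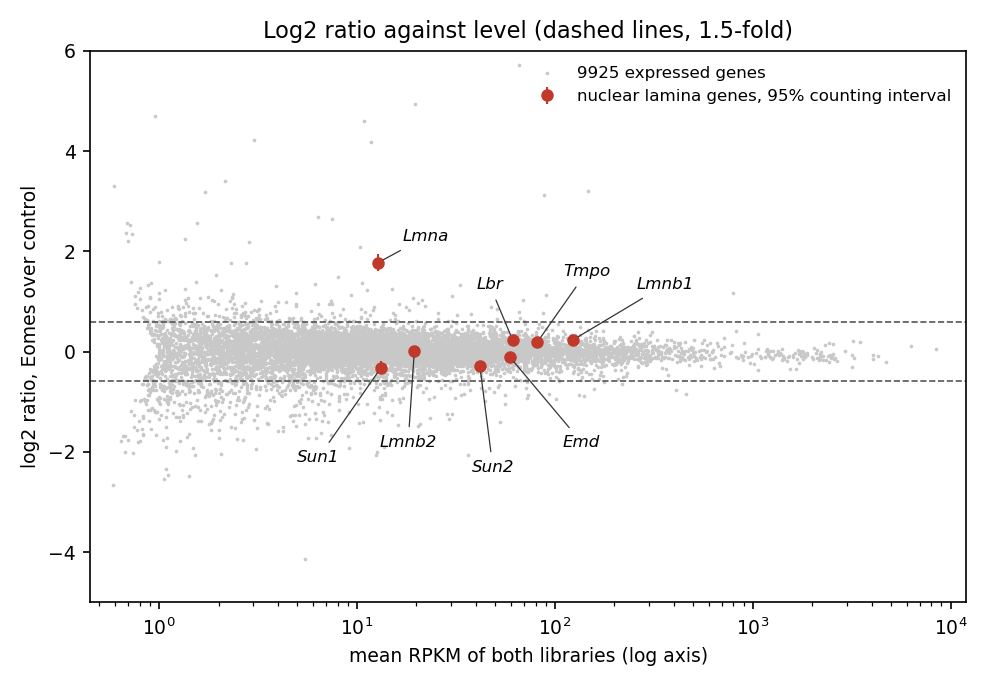
Log2 ratio of the Eomes library over the control library against the mean RPKM of both libraries (log axis) for 9925 expressed genes (grey; 3 lie outside the axis) and the 8 nuclear lamina genes (red, with 95% counting intervals). Dashed lines mark 1.5-fold; *Lmna*, at 1.77, is the only red point beyond them.

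In control cells the levels followed the order *Lmnb1*, *Tmpo*, *Emd*, *Lbr*, *Sun2*, *Lmnb2*, *Sun1* and *Lmna*. The highest was 19.7 times the lowest. In Eomes-overexpressing cells the order was *Lmnb1*, *Tmpo*, *Lbr*, *Emd*, *Sun2*, *Lmna*, *Lmnb2* and *Sun1*, and the highest was 11.3 times the lowest. *Lmna* and *Lmnb2* differed there by less than their counting error, and no spread between cultures is known for any neighbours in this order. The summed RPKM of the 8 genes was 393.7 in the control library and 431.9 in the Eomes library, or 0.0701% and 0.0786% of all RPKM.

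The log2 ratio moved with the GC content of the transcript across expressed genes. Expressed genes were divided into 20 bins by GC content. The bin with the lowest content had a median log2 ratio of 0.28 and the bin with the highest had -0.09. *Lbr* and *Tmpo*, whose transcripts had a GC content of 44.2% and 47.3%, lay where this median was above 0. With the median of each gene's GC bin taken off, *Lbr* was at 0.08 and *Tmpo* at 0.11. *Lmna*, with a GC content of 59.3%, lay where the median was below 0, and was at 1.88 after this step. *Lmnb1* was then at 0.32, *Lmnb2* at 0.09, *Emd* at -0.02, *Sun1* at -0.25 and *Sun2* at -0.21. The part of GC content in the values of the nuclear lamina genes, *Lmna* included, was not tested.

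**Figure D4:**
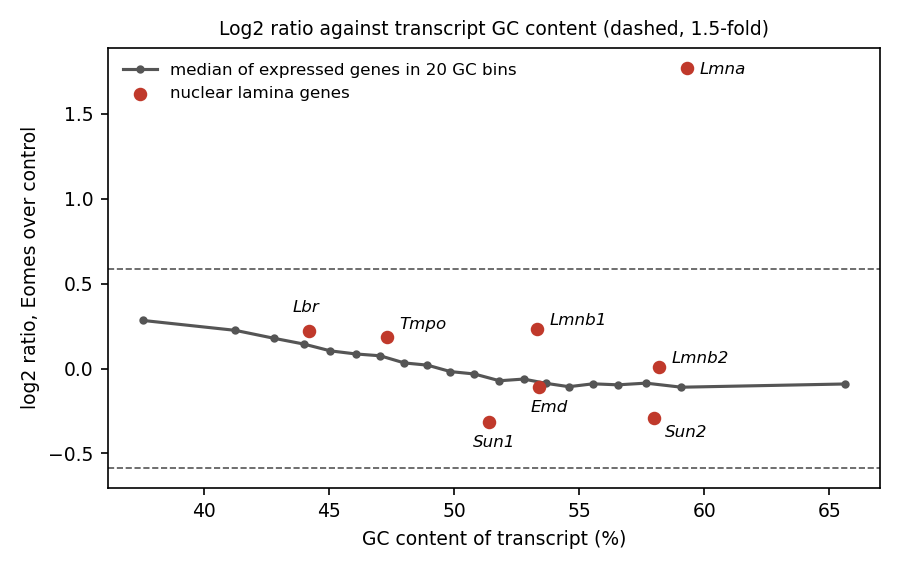
Log2 ratio of the Eomes library over the control library against the GC content of the transcript for the 8 nuclear lamina genes (red), with the median of expressed genes in 20 bins of GC content (grey line). *Emd*, *Lbr*, *Lmnb2* and *Tmpo* lie closest to the line, from -0.02 to 0.11 off it, while *Lmna*, at 59.3% GC, lies at 1.77 where the line is below 0; dashed lines mark 1.5-fold.

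Other genes of the nuclear envelope, and genes of chromatin, cell division and cytoplasmic filaments, were described from 7 lists. These too were chosen with earlier results of these data known. Of their 93 expressed genes none was past 1.5-fold in either direction, beside 7.65% of all expressed genes. Most had a mean RPKM above 5, where this share is lower. It was 16.9% of expressed genes from 1 to 5, 5.09% from 5 to 20, 2.25% from 20 to 100 and 1.32% from 100 upward. Of 6 genes that process lamins, 1 had a log2 ratio above 0 and 5 below 0, with a median of -0.05. *Zmpste24*, the protease that cleaves prelamin A to lamin A, was at RPKM values of 28.8 in the control library and 31.4 in the Eomes library. *Fnta*, a subunit of the farnesyltransferase that adds the lipid to lamins, was at 33.5 and 32.3. *Rce1*, which trims the end of the lipid-bearing proteins, was at 26.3 and 23.0. The list of other inner membrane and LINC genes held 20 symbols, of which 15 were expressed, 7 with a log2 ratio above 0 and 8 below 0 (median -0.05). *Banf1*, which encodes the DNA-binding partner of LEM-domain proteins, was the most abundant of them at 294.2 and 279.4. *Tor1a*, which encodes the ATPase torsin of the space between the nuclear membranes, was at 35.1 and 30.2, and *Tor1aip2*, which encodes an activator of torsins, at 27.7 and 29.1.

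More nuclear pore genes had a log2 ratio above 0 than below 0, none past 1.5-fold. Of 30 pore genes, 22 had a log2 ratio above 0, beside 49.2% of all expressed genes, with a median of 0.16 and a highest value of 0.51. The GC content of these transcripts had a median of 47.6%, and after subtraction of the GC median the log2 ratio was 0.12 at the median. The 3 most abundant pore genes had log2 ratios below 0, with *Sec13* at RPKM values of 138.3 and 124.0, *Nup210* at 96.4 and 85.1 and *Nup85* at 86.5 and 85.9. Among 12 genes of chromatin partners of the lamina, 9 had a log2 ratio above 0 (median 0.14). *Cbx3*, which encodes a heterochromatin protein 1, was at 82.5 and 111.0. *Ehmt2*, a histone H3 lysine methyltransferase, was at 66.5 and 69.2, and *Hdac3*, a deacetylase that lamina proteins bind, at 49.6 and 49.3.

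The lamina is taken apart and rebuilt at each division, and *Lmnb1* and *Tmpo* are known to be high in dividing cells. Of 15 proliferation genes, 14 had a log2 ratio above 0, beside 49.2% of all expressed genes. Their median was 0.15, with values from -0.01 to 0.45. *Pcna*, the sliding clamp of DNA polymerase, was at RPKM values of 401.9 in the control library and 442.9 in the Eomes library. *Rrm2*, a subunit of ribonucleotide reductase, was at 263.8 and 299.2, and *Mcm6*, of the replicative helicase, at 179.7 and 182.5. The log2 ratios of *Lmnb1*, *Lbr*, *Tmpo* and *Lmnb2* (0.23, 0.22, 0.18 and 0.01) lay within the range of this list, and those of *Lmna*, *Emd*, *Sun1* and *Sun2* did not. The part of proliferation in these values was not tested. Transcripts of the proliferation list had a median GC content of 46.6%, and their median log2 ratio was 0.08 after the GC step. The list then ran from -0.05 to 0.37, and *Emd*, at -0.02 after this step, lay within it as well. Among 13 genes of envelope breakdown and reassembly, 6 had a log2 ratio above 0 and 7 below 0, with a median of -0.03. *Chmp4b*, of the ESCRT machinery that seals the envelope, was at 153.8 and 142.4, and the mitotic kinase genes *Plk1* and *Cdk1* were at 110.4 and 118.5 and at 56.0 and 58.0.

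Of 11 genes for cytoplasmic intermediate filaments, a family related to the lamins, 2 were expressed. *Vim*, which encodes vimentin, was at RPKM values of 1722.1 in the control library and 1362.3 in the Eomes library, a log2 ratio of -0.34. The keratin gene *Krt10* was at 1.22 and 0.95, and *Krt18* was under 1 in both libraries.

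**Figure D5:**
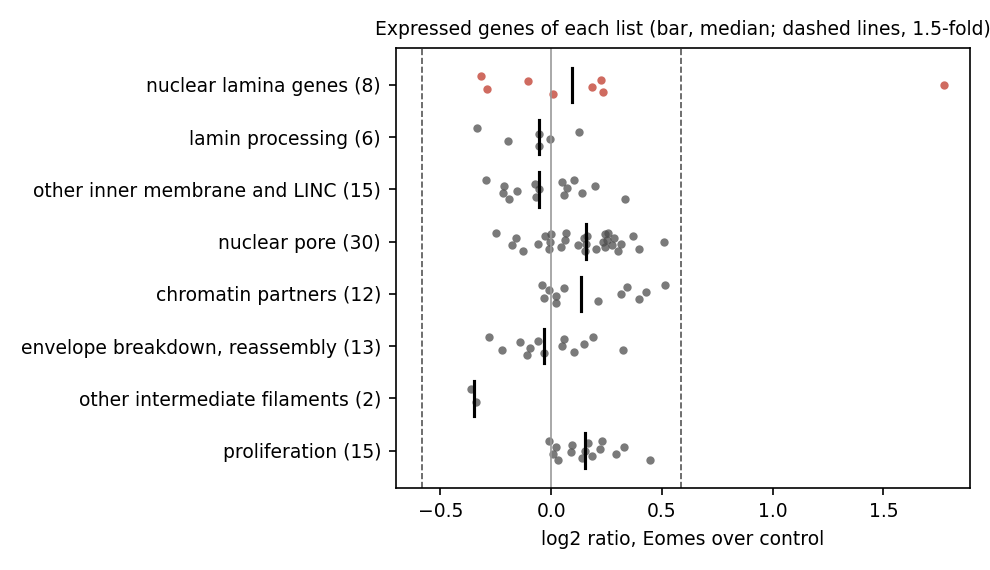
Log2 ratio of the Eomes library over the control library for each expressed gene of the nuclear lamina genes (red) and of 7 other lists (grey), with the number of genes in brackets and the median of each list as a bar. Dashed lines mark 1.5-fold; *Lmna* is the only point beyond them.

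Markers of other cells were checked because lamin A/C is abundant in many cells outside the lymphoid lineage. For stroma and endothelium, 1 of 8 markers was expressed, *Pecam1* at RPKM values of 5.10 in the control library and 3.46 in the Eomes library, and the summed RPKM of the list was 7.29 and 5.42. *Col1a2* and *Col1a1*, the collagen genes of fibroblasts, were at 0.88 and 0.72 and at 0.56 and 0.55. Of 10 markers of myeloid and dendritic cells, 3 were expressed. *Cst3*, *Cd68* and *Xcr1* were at 113.5 and 102.5, at 2.68 and 4.59 and at 1.79 and 1.11, while the defining genes *Lyz2*, *Csf1r* and *Adgre1* were not listed in either library. *Itgam* was at 0.01 and 0.16, *Itgax* at 0.17 and 0.18, *Flt3* at 0.05 and 0.03 and *Siglech* at 0.05 and 0.02. The sum of the myeloid list was 118.2 and 108.6, nearly all of it *Cst3*, so that it says little of the other markers. Of 6 B cell markers, *Cd79b* was expressed, at 2.79 and 1.56, *Ebf1* was at 0.55 and 0.27, *Cd79a* at 0.08 and 0.04, and *Ms4a1* and *Pax5* were not listed. The sum of the B cell list was 3.42 and 1.89. *Cd40lg*, *Foxp3* and *Cd4* were under 1 in both libraries, with a sum of 0.53 and 0.23. Among expressed markers of other cell types, *Cd68* was thus the only one with a log2 ratio above 0, and its part in the value of *Lmna* was not tested.

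The genes closest to *Lmna* in both libraries were found by the distance of the log2 RPKM values, over the 2 libraries and all expressed genes. *Esm1* was nearest, at RPKM values of 5.94 in the control library and 15.4 in the Eomes library and a distance of 0.36. *Cd24a* was at 6.73 and 15.8, and *Ccr2*, which encodes a chemokine receptor, at 3.91 and 16.7. With 2 libraries, such closeness holds only a level and a ratio.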

How the data were processed

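RNA sequencing of control and Eomes-overexpressing OT-I cells was analysed, with 1 library per condition, grouped by sample title. The authors filtered reads with SOAPnuke, mapped them with HISAT and Bowtie2 and computed values with RSEM, with mm10 as the genome build (versions are not given in the sources used here). They deposited FPKM values (RPKM in the methods) with 2 decimals, 1 per gene symbol, listed from 0.01 upward. No scaling between libraries is named. Symbols turned into dates (20 and 19) were left out. Of the 8 members and all lists, the choice was made with earlier results of these data known.

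Log2 ratios were computed in pandas 2.3.3 and numpy 2.4.6 under Python 3.11.15, with values under 0.01 or not listed set to 0.01, intervals came from scipy 1.17.1 and plots from matplotlib 3.10.9. A gene was called expressed from an RPKM of 1 upward in either library, and 1.5-fold was the threshold, the fold that the study used. With 1 library per condition no test was run.

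Depth was the value at which RPKM times length fell nearest to whole reads, over low genes with a single RefSeq transcript of 300 to 2000 bases in GENCODE vM21. It was 19340000 (18980000 to 19800000) reads from 550 genes in control and 19360000 (18880000 to 19780000) from 562 genes in Eomes-overexpressing cells, where the range keeps 95% of the best score. At these depths 69.5% and 67.6% of the values lay within 0.15 of a whole read. Reads of single genes are approximate, since the lengths the authors used are not given in the sources used here. Length and GC content came from the longest transcript with a RefSeq match, or from the longest of any kind where no transcript had a match. Of expressed genes, 99.1% had a GC content by this rule. The steps were tested on simulated data.

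Named were the 8 members, *Eomes*, in each list the genes past 1.5-fold and the 3 with the highest mean RPKM, and the 3 genes nearest to a member past 1.5-fold. Further marker genes were named after their values were seen. Alternatives were a pseudocount of 0.1 or 1, other scalings, centring by GC content, a 2-fold threshold and other minimum values.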

Additional observations from a re-analysis of the deposited data

How the results depend on the processing

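*Lmna* was past 1.5-fold under each of 6 alternatives of pseudocount, scaling or GC content, with log2 ratios from 1.61 to 1.88, and the other 7 genes kept their sign and stayed within 1.5-fold under the same alternatives. The number of nuclear lamina genes past the threshold was 1 under all alternatives, the 2-fold threshold and the other minimum values included. Centring by GC content moved *Lmnb1* to 0.32, *Lbr* to 0.08, *Tmpo* to 0.11 and *Sun2* to -0.21, each by more than its counting error. A pseudocount of 1 set the share of *Lmna* among lamins in control at 4.78%. The median log2 ratio of the 8 genes was 0.007 when *Lmna*, *Lmnb1*, *Lbr* or *Tmpo* was left out and 0.184 when *Lmnb2*, *Emd*, *Sun1* or *Sun2* was. The number of all genes past the threshold was 403 with a pseudocount of 1, 244 at 2-fold, 3444 with no minimum and 308 with a minimum of 5. With no minimum, 5 genes of the 7 other lists were past 1.5-fold, the LINC gene *Sun3* and the cytoplasmic filament genes *Nes*, *Des*, *Prph* and *Synm*, all with an RPKM under 1.

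No paired analysis was possible because each condition had 1 library. For the same reason no library was left out. Of the 8 genes, *Lmna* in the control library rested on the fewest reads, about 352.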
